A study of Mus musculus with 12 samples.

Results

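The genes described here are 10 components of bone morphogenetic protein (BMP) signaling, namely the ligands Bmp2, Bmp4, Bmp5 and Bmp7, the receptors Bmpr1a, Bmpr1b and Bmpr2, the receptor Smads Smad1 and Smad5, and their partner Smad4. They were found by gene symbol, as every probe set of the array annotated to 1 of these symbols alone, which gave 29 of 45037 probe sets and 10 of 18193 genes. A probe set is a group of short probes that reads 1 transcript as a relative intensity. Total RNA was hybridized to 12 Affymetrix 430 2.0 mouse arrays, 2 for each of 6 groups. The groups were KO and WT cells at day 0, as undifferentiated embryonic stem (ES) cells, and KO and WT cells after 8 and 15 days of differentiation. All were of the C57BL/6 background, KO cells being Terc-/- and thus without the RNA component of telomerase. At day 0 the 2 KO arrays came from the lines F35 and A49 at passage 11 and the 2 WT arrays from the lines N12 and N33 at passage 12. The study's methods derive F35 and A49 from late generation Terc-/- mice, in which telomeres are short. The study's text names G4 cells for its array comparisons, the generation of A49, whereas F35 is G3 by its methods. The labels name no line for days 8 and 15, so p-values measure only the spread between these samples. ES cells were kept on mouse fibroblast feeders with LIF, and differentiation ran through hanging drops without LIF to embryoid bodies plated in wells. Terc itself was not analysed here, so the genotype of an array rests on its label.

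BMPs are secreted dimers of the TGF-β superfamily. They assemble type I receptors such as Bmpr1a and Bmpr1b with the type II receptor Bmpr2, and the type I kinase then phosphorylates Smad1 and Smad5, which enter the nucleus with Smad4 and switch target genes such as the Id genes. In ES cells BMP4 helps to hold back neural differentiation, and in differentiating cultures BMP signals direct cells towards mesoderm and surface ectoderm, the source of the epidermis.

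For 7 of 9 of these genes looked up, RefSeq (GRCm38.p6) gave a promoter, taken here as the 250 bases before the most upstream start listed. Bmp2 and Bmp7 had no entry. The windows of the 4 genes with a promoter and a probe set of above median intensity past the threshold in the comparisons below are shown 5′ to 3′ on the strand of the gene. Bmp4 lies on the minus strand at chr14:46390670-46390919, Bmp5 on the plus strand at chr9:75775115-75775364, Smad1 on the minus strand at chr8:79399429-79399678 and Smad5 on the plus strand at chr13:56702760-56703009. Capitals mark a match to GGCGCC, to CAGAC or its reverse complement GTCTG, which Smads can bind, or to TATAAA or its reverse complement TTTATA.
Bmp4: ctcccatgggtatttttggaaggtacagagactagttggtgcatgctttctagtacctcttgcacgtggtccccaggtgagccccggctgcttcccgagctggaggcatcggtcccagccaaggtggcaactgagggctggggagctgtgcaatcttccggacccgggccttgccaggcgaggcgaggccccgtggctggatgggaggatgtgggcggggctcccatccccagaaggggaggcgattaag
Bmp5: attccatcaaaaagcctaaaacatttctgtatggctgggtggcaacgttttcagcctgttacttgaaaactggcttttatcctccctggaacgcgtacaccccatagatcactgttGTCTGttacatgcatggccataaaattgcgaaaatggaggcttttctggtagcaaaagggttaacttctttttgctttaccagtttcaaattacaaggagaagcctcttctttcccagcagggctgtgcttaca
Smad1: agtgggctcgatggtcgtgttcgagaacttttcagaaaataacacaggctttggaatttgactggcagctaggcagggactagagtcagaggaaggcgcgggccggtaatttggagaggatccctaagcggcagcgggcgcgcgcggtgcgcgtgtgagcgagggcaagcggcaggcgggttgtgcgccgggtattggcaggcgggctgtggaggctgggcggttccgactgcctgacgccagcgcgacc
Smad5: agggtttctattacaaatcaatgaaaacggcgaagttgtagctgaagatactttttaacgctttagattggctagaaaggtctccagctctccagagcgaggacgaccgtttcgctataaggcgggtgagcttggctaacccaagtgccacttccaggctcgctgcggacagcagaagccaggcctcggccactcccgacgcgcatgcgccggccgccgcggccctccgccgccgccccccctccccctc
Of these 4 windows, only that of Bmp5 held a match, 1 to CAGAC on either strand, which 42.2% of 32851 promoter windows of this length also held. The windows of Bmpr1a and Bmpr2 held 1 match each to GGCGCC, present in 9.59% of all windows. TATAAA, which can overlap its own reverse complement, was present in 12.4% of all windows and in that of Bmpr1b alone among the 7 genes' most upstream windows. The Bmp4 window was 63.2% G and C and the Bmp5 window 42.8%. A match is a description of letters and not of binding.

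Intensities at day 0 had another distribution than those of the later days. The array medians were 113.6 to 117 at day 0 and 50.6 to 53.1 at days 8 and 15, and the lower quartiles 54.4 to 56.3 and 19.1 to 20.8, while the highest values were much alike at 20085 to 20573 and 21368 to 22080. The cause was not tested, and KO cells were compared with WT cells within a day and day 15 with day 8, and levels at day 0 were set beside later ones without a test. A limma model of the log2 intensities of all 12 arrays was used, with Benjamini-Hochberg adjustment across the 45037 probe sets and 0.05 as the threshold. Replicates of a group correlated at 0.987 to 0.996 in log2 intensity, lowest for WT cells at day 8. The 10 pluripotency markers, Pou5f1 and Nanog among them, were all above the array median on the 4 day 0 arrays, as the label of undifferentiated ES cells states.

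At day 0 none of the 29 probe sets passed the threshold in limma, with 2 at an unadjusted p under 0.05, against 3870 of all 45037. At day 8, 1 was lower in KO cells and none was higher, and at day 15, 4 were lower and 1 was higher. Over all probe sets 0.0488% passed at day 0, 0.513% were higher and 0.615% lower at day 8, and 6.45% were higher and 6.45% lower at day 15. The members' share at day 15, 5 of 29, is thus to be read against a comparison in which many genes differed. The median log2 difference of the 29 probe sets between KO and WT cells was 0.04 at day 0, -0.17 at day 8 and -0.02 at day 15, against 0.04, 0.03 and 0.04 over all probe sets. At day 8, 24 of 29 differences were negative, 1 of which passed. Many of the 24 are probe sets of the same gene, and the share over all probe sets was not counted. The 2 KO arrays lay on one side of the 2 WT arrays on 17, 14 and 16 of the 29 probe sets at days 0, 8 and 15, against 47.9%, 43.5% and 54.2% of all probe sets. By the study's own rule of a 1.8-fold ratio of group means, 0, 1 and 1 passed, where 1.13%, 2.28% and 6.28% of all probe sets did. The counts under other fits, here and below, are given without the share over all probe sets. They show how far calls depend on single arrays and are not read as particular to the members. The day 0 count was 1 without the KO line F35. The day 8 count was 0 without either KO array of day 8 or either WT array of day 0, 2 without either KO array of day 0 and 4 without WT replicate 1 of day 8. The day 15 count fell without WT replicate 1 or either KO replicate of that day. It also fell without any 1 array of day 0 or either KO array of day 8. It rose without WT replicate 2 of day 15 (Smad1 gained) or either WT array of day 8 (Bmpr2 gained).

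**Figure D1:**
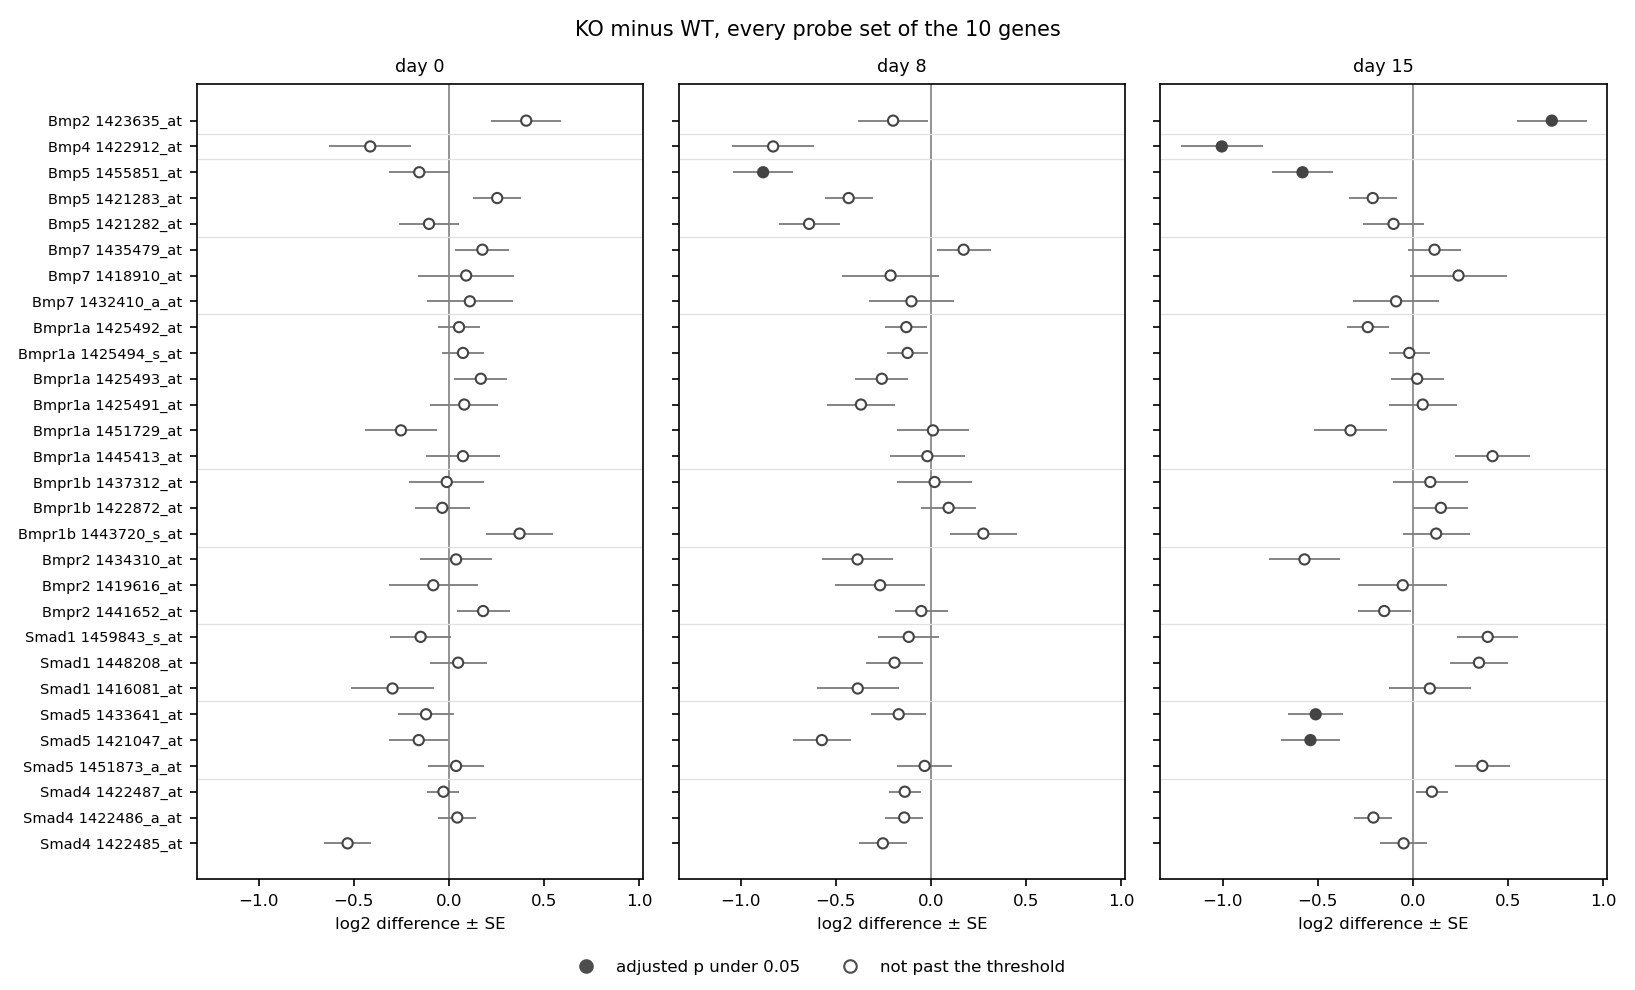
KO minus WT log2 difference ± SE (horizontal axis) for each of the 29 probe sets (rows), by day, with 2 arrays a group. Filled points passed an adjusted p of 0.05: none at day 0, 1 at day 8 (Bmp5) and 5 at day 15, of which Bmp2 alone lies to the right of 0.

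From day 8 to day 15, WT cells changed on 8 of the 29 probe sets, 2 higher and 6 lower at day 15 (1 of the 6 a Bmp5 probe set under the median of every array), where 6.89% of all probe sets were higher and 9.16% lower. KO cells changed on none in limma, and only 0.02% of all probe sets passed there. At an unadjusted p under 0.05 there were 6 of 29, against 4847 of all 45037. When only the arrays of KO cells at these days were fitted, 2 passed, Bmp2 and Bmp4, both lower at day 15. The share of all probe sets that passed in that fit is not given here. The difference between KO and WT cells in this change was itself tested. None of the 29 passed where 0.422% of all probe sets did (4 at an unadjusted p under 0.05, against 5425 of 45037). Calls in WT cells and not in KO cells therefore do not show that the genotypes changed differently. The median log2 change of the 29 probe sets was 0.02 in KO cells and -0.14 in WT cells, against -0.01 and 0.00 over all probe sets. By the 1.8-fold rule 0 probe sets changed in KO cells and 2 in WT cells, against 0.946% and 6.64% of all. The WT count was 3 without WT replicate 1 of day 15.

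Among the ligands, Bmp4, Bmp5 and Bmp2 differed between KO and WT cells at day 15, the first pair lower and Bmp2 higher in KO cells. Bmp4 is a ligand of early mesoderm and of ectodermal patterning. Its intensity at day 15 was 681.5 and 754.9 in KO cells, against 1428 and 1449 in WT cells. Day 8 gave 975.2 and 1255 in KO cells, against 1818 and 2124 in WT cells. At day 0 it was 490.5 and 300.5 in KO cells, against 580.7 and 450.5 in WT cells. KO arrays lay below WT arrays at both later days, while the groups overlapped at day 0. The log2 difference was -1.004 ± 0.22 at day 15 (SE, adjusted p = 0.0122 in limma), a level 2.00-fold lower in KO cells. At day 8 it was -0.83 ± 0.22, which did not pass (adjusted p = 0.105, 95% interval -1.30 to -0.35). The day 8 difference passed with adjusted p of 0.0372 and 0.0373 when a KO array of day 0 was left out, which leaves the values themselves untouched, and with 0.0486 in a fit of the 8 later arrays alone. The day 15 call was lost without WT replicate 1 or either KO replicate of day 15, where the log2 difference stayed between -1.08 and -0.93 over all alternatives. In bulk RNA, fewer cells that make a transcript and less of it per cell cannot be told apart.

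Bmp5 is a ligand of the subgroup that also holds Bmp7. Its brightest probe set (1455851_at) read 207.8 and 210.3 in KO cells at day 8, against 415.8 and 356.9 in WT cells. At day 15 it read 190.2 and 242.9 in KO cells, against 356.2 and 289.6 in WT cells. Its day 0 intensities of 30.4 to 37.5 were far under the array medians in both genotypes. KO arrays were the lower ones on both later days without overlap. The log2 difference was -0.88 ± 0.16 at day 8 (adjusted p = 0.0275) and -0.58 ± 0.16 at day 15 (adjusted p = 0.0353). The 2 other Bmp5 probe sets, 1421283_at and 1421282_at, were under the array median on all later arrays. Neither passed between KO and WT cells, and no size of difference is read from them. The day 8 call was lost without either KO array of that day, without either WT array of day 0, and in the fit of the 8 later arrays alone. The day 15 call was lost without WT replicate 1 or KO replicate 1 of that day, without either KO array of day 8 or either WT array of day 0, and in the fit of the 8 later arrays. Both calls were also lost in a fit of only the arrays compared.

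Bmp2, a close relative of Bmp4 with which it shares receptors, took another course. It was under the array median at day 0, at 47.1 and 55.2 in KO cells, against 47.2 and 31.3 in WT cells. At day 8 it was bright in both, at 1316 and 1442 in KO cells, against 1613 and 1549 in WT cells. At day 15 it was 1008 and 950.4 in KO cells, against 527.7 and 659.1 in WT cells. KO cells were thus the lower group at day 8 and the higher group at day 15, without overlap on either day. The log2 difference was -0.20 ± 0.18 at day 8 (adjusted p = 0.691) and 0.73 ± 0.18 at day 15 (adjusted p = 0.0242), a level 1.66-fold higher in KO cells. The day 15 call was lost without WT replicate 1 or either KO replicate of that day, with log2 differences of 0.57 to 0.89 over all alternatives. Between day 15 and day 8 Bmp2 fell by 1.42 ± 0.18 on the log2 scale in WT cells (adjusted p = 0.000738), to a level 2.68-fold lower. The same change in KO cells was -0.49 ± 0.18 and did not pass (adjusted p = 0.37). The changes differed by 0.93 ± 0.26 between KO and WT cells, which did not pass either (adjusted p = 0.18, 95% interval 0.36 to 1.5).

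Bmp7, a ligand that can pair with Bmp2 or Bmp4, read 145.5 and 141.9 in KO cells at day 15, against 131.2 and 134.3 in WT cells on its brightest probe set (1435479_at). The log2 difference was 0.17 ± 0.14 at day 8 (adjusted p = 0.644) and 0.11 ± 0.14 at day 15 (adjusted p = 0.681, 95% interval -0.20 to 0.42). Its probe set 1418910_at differed by 0.24 at day 15, and 1432410_a_at was under the median of all 12 arrays. Bmp4 changed from day 8 to day 15 by -0.63 ± 0.22 in KO cells (adjusted p = 0.34) and -0.45 ± 0.22 in WT cells (adjusted p = 0.204), and these changes differed by -0.17 ± 0.31. Bmp5 changed by 0.04 ± 0.16 in KO cells and -0.26 ± 0.16 in WT cells on its brightest probe set, neither past the threshold. Its probe set 1421282_at was the dim one counted among the 8 calls in WT cells (adjusted p = 0.0465), at 22.2 and 17.2 at day 15, against 30.4 and 26 at day 8. Under the median of all 12 arrays, it is given no size of change. Its call was lost without any 1 array of day 0, WT replicate 1 of day 8, WT replicate 2 of day 15 or either KO array of day 15. It was also lost with only the arrays compared, in the fit of the 8 later arrays and with a replicate block. The Bmp7 probe set 1435479_at changed in WT cells by 0.37 ± 0.14 (adjusted p = 0.107), which passed without WT replicate 1 of day 8 (0.55, adjusted p = 0.0318).

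**Figure D2:**
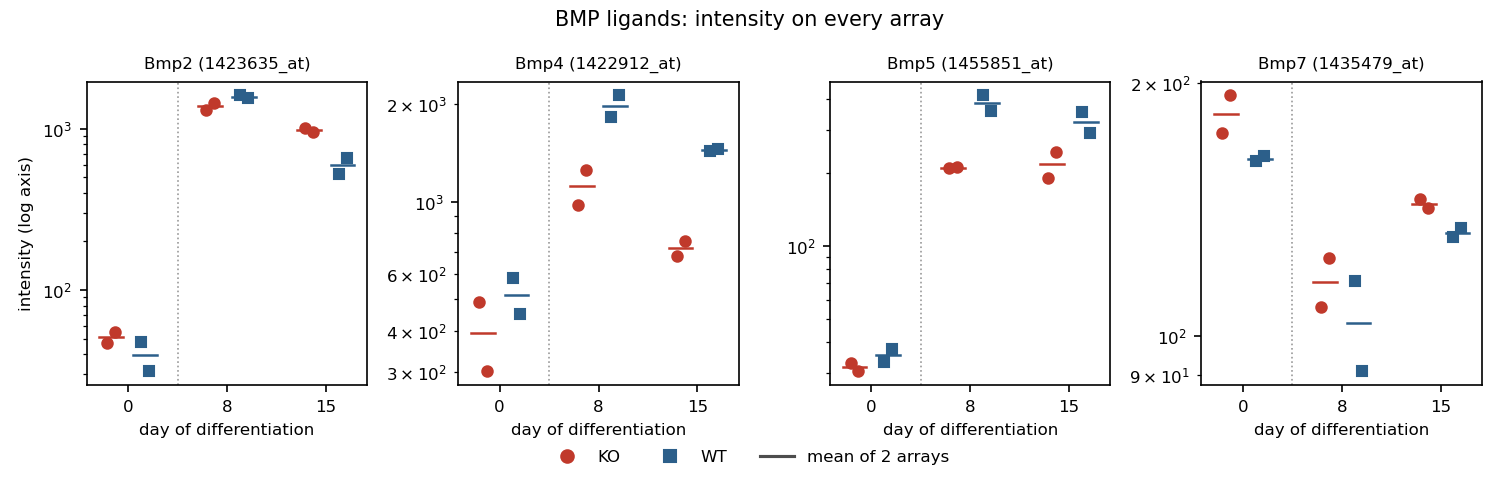
Intensity on a log axis against day for the brightest probe set of each ligand, with KO cells left of WT cells, 1 point per array and a line at the mean of 2 arrays. The dotted line parts day 0, where the array medians were higher, from days 8 and 15. Bmp4 in KO cells lies at 681.5 to 1255 on the later days, under all 4 WT arrays, and Bmp2 changes sides.

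None of the 3 receptors passed the threshold between KO and WT cells at any day. Bmpr2, the type II receptor specific to BMPs, had the largest difference among their brightest probe sets. At day 15 it was 1213 and 1522 in KO cells, against 2060 and 1974 in WT cells. Day 8 gave 1154 and 1361 in KO cells, against 1308 and 2050 in WT cells. The groups were apart at day 15 and overlapped at day 8, where WT replicate 2 was the high one. The log2 difference was -0.57 ± 0.19 at day 15 (adjusted p = 0.0732, 95% interval -0.98 to -0.16) and -0.39 ± 0.19 at day 8 (adjusted p = 0.398). It passed at day 15 with only the arrays compared (adjusted p = 0.033), with a replicate block (adjusted p = 0.0321) and without either WT array of day 8 (adjusted p of 0.00788 and 0.00797). At day 8 it passed without WT replicate 1 (log2 difference -0.71, adjusted p = 0.0203). Of the 2 other Bmpr2 probe sets, 1419616_at differed by -0.05 at day 15, and 1441652_at was above the array median on 1 of 12 arrays.

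Bmpr1a, the type I receptor that early embryos need for mesoderm, was read by 6 probe sets. On the brightest (1425492_at) it was 765.7 and 793.4 in KO cells at day 15, against 982.1 and 858.8 in WT cells. Day 8 gave 718.7 and 706.1 in KO cells, against 737.8 and 822.7 in WT cells. KO arrays were lower without overlap on both days, by a small margin. The log2 difference was -0.24 ± 0.11 at day 15 (adjusted p = 0.198) and -0.13 ± 0.11 at day 8 (adjusted p = 0.657). Over the 5 probe sets above the array median on at least 6 of the 8 later arrays, the day 15 differences ran from -0.33 to 0.05 and did not share a direction, while 1445413_at was under the median of all 12 arrays. Between day 15 and day 8 none of the Bmpr1a or Bmpr2 probe sets passed in either genotype, the brightest changing in WT cells by 0.24 ± 0.11 for Bmpr1a and 0.30 ± 0.19 for Bmpr2. The Bmpr2 value passed without WT replicate 2 of day 8 (0.63, adjusted p = 0.0122). The Bmpr1a probe set 1425491_at passed without WT replicate 1 of day 8, lower in KO cells at that day (log2 difference -0.65, adjusted p = 0.0377) and lower at day 15 than at day 8 in WT cells (-0.69, adjusted p = 0.0176).

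Bmpr1b, the other type I receptor of the group and known for its role in cartilage and ovary, was under the median of its array on all 12 arrays and all 3 probe sets. Its brightest probe set read 20.1 and 26.3 in KO cells at day 15, against 20.4 and 22.9 in WT cells. No fold is given for it, since nothing here shows a signal over background.

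Of the receptor Smads, Smad5 was lower in KO cells at day 15 on 2 of its 3 probe sets. The brightest (1433641_at) read 453.6 and 507.2 in KO cells, against 775.1 and 602.1 in WT cells, and 1421047_at read 130.6 and 137.2 in KO cells, against 212.1 and 177.9 in WT cells. Both had KO arrays under WT arrays. The log2 differences were -0.51 ± 0.15 (adjusted p = 0.0413) and -0.54 ± 0.15 (adjusted p = 0.0418). The third, 1451873_a_at, ran the other way at 89.1 and 78.7 in KO cells, against 62.2 and 67.8 in WT cells, with a log2 difference of 0.37 ± 0.15 that did not pass (adjusted p = 0.135). The probe sets of this gene thus disagreed in sign, and a gene-level direction is not given. Both calls were lost in most alternatives: without any array of day 0 or any KO array of day 8 or 15, without WT replicate 1 of day 15, and after quantile normalization. Both were lost too with only the arrays compared and in the fit of the 8 later arrays. At day 8, 1421047_at read 109.9 and 119.3 in KO cells, against 146.8 and 197.6 in WT cells (log2 difference -0.57 ± 0.15, adjusted p = 0.111), and it passed without WT replicate 1 of that day (-0.79, adjusted p = 0.0134).

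The same split showed in time. From day 8 to day 15 in WT cells, 1433641_at rose by 0.54 ± 0.15 (adjusted p = 0.0271) while 1451873_a_at fell by 0.58 ± 0.15 (adjusted p = 0.0209) and 1421047_at changed by 0.19 ± 0.15 (adjusted p = 0.488). In KO cells the 3 changes were 0.20 ± 0.15, -0.18 ± 0.15 and 0.23 ± 0.15, none past the threshold. The WT calls of 1433641_at and 1451873_a_at were lost without WT replicate 1 of day 15. Both were lost too with only the arrays compared and in the fit of the 8 later arrays. They were also lost without 1 WT array of day 8, replicate 1 for 1433641_at and replicate 2 for 1451873_a_at.

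Smad1, which shares targets with Smad5, moved alike on its 3 probe sets in time and less so between KO and WT cells. At day 15 the brightest (1459843_s_at) read 820.3 and 835.6 in KO cells, against 534.8 and 742.3 in WT cells. Day 8 gave 997.2 and 956 in KO cells, against 1193 and 938.9 in WT cells. The KO minus WT difference was 0.39 ± 0.16 at day 15 (adjusted p = 0.138) and -0.12 ± 0.16 at day 8 (adjusted p = 0.802). At day 15 it was 0.35 ± 0.15 on 1448208_at (adjusted p = 0.166). On 1416081_at it was 0.09 ± 0.22 (adjusted p = 0.853), with overlapping arrays. At day 0 the 3 differences were -0.15, 0.05 and -0.30, none past the threshold. At day 15 the 2 brighter probe sets passed without WT replicate 2, with log2 differences of 0.63 (adjusted p = 0.0235) and 0.57 (adjusted p = 0.0269). From day 8 to day 15 in WT cells all 3 fell, by 0.75 ± 0.16 (adjusted p = 0.00887), 0.88 ± 0.15 (1448208_at, adjusted p = 0.00292) and 0.83 ± 0.22 (1416081_at, adjusted p = 0.0245). In KO cells the changes were -0.24 ± 0.16, -0.34 ± 0.15 and -0.35 ± 0.22, none past the threshold. The difference between these changes, 0.51 ± 0.22, 0.54 ± 0.21 and 0.47 ± 0.31, did not pass (adjusted p of 0.396, 0.332 and 0.596). Without WT replicate 1 of day 15 the WT calls of 1459843_s_at and 1416081_at were lost, and that of 1416081_at also without WT replicate 1 of day 8. All 3 WT calls, that of 1448208_at included, were lost with only the arrays compared.

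Smad4, the partner of all receptor Smads, did not pass on any of its 3 probe sets between KO and WT cells on any day. The brightest of them (1422487_at) read 2844 and 2959 in KO cells at day 15, against 2580 and 2837 in WT cells (log2 difference 0.10 ± 0.08, adjusted p = 0.511). At day 8 the difference was -0.14 ± 0.08 (adjusted p = 0.51). At day 0 the probe set 1422485_at read 1158 in F35 and 892.1 in A49 KO cells, against 1433 in N12 and 1510 in N33 WT cells. Its log2 difference of -0.53 ± 0.12 had the smallest p of the 29 on that day and did not pass (adjusted p = 0.163). Without F35 it passed (log2 difference -0.72, adjusted p = 0.0214), while the other 2 Smad4 probe sets differed by -0.03 and 0.04. From day 8 to day 15 1422486_a_at rose in WT cells by 0.34 ± 0.10 (adjusted p = 0.0386), and 1422487_at changed there by -0.01 ± 0.08. The call of 1422486_a_at was lost in 15 of 21 alternatives, among them leaving out any 1 array of day 0, either KO array or WT replicate 2 of day 8, or either WT array of day 15.

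**Figure D3:**
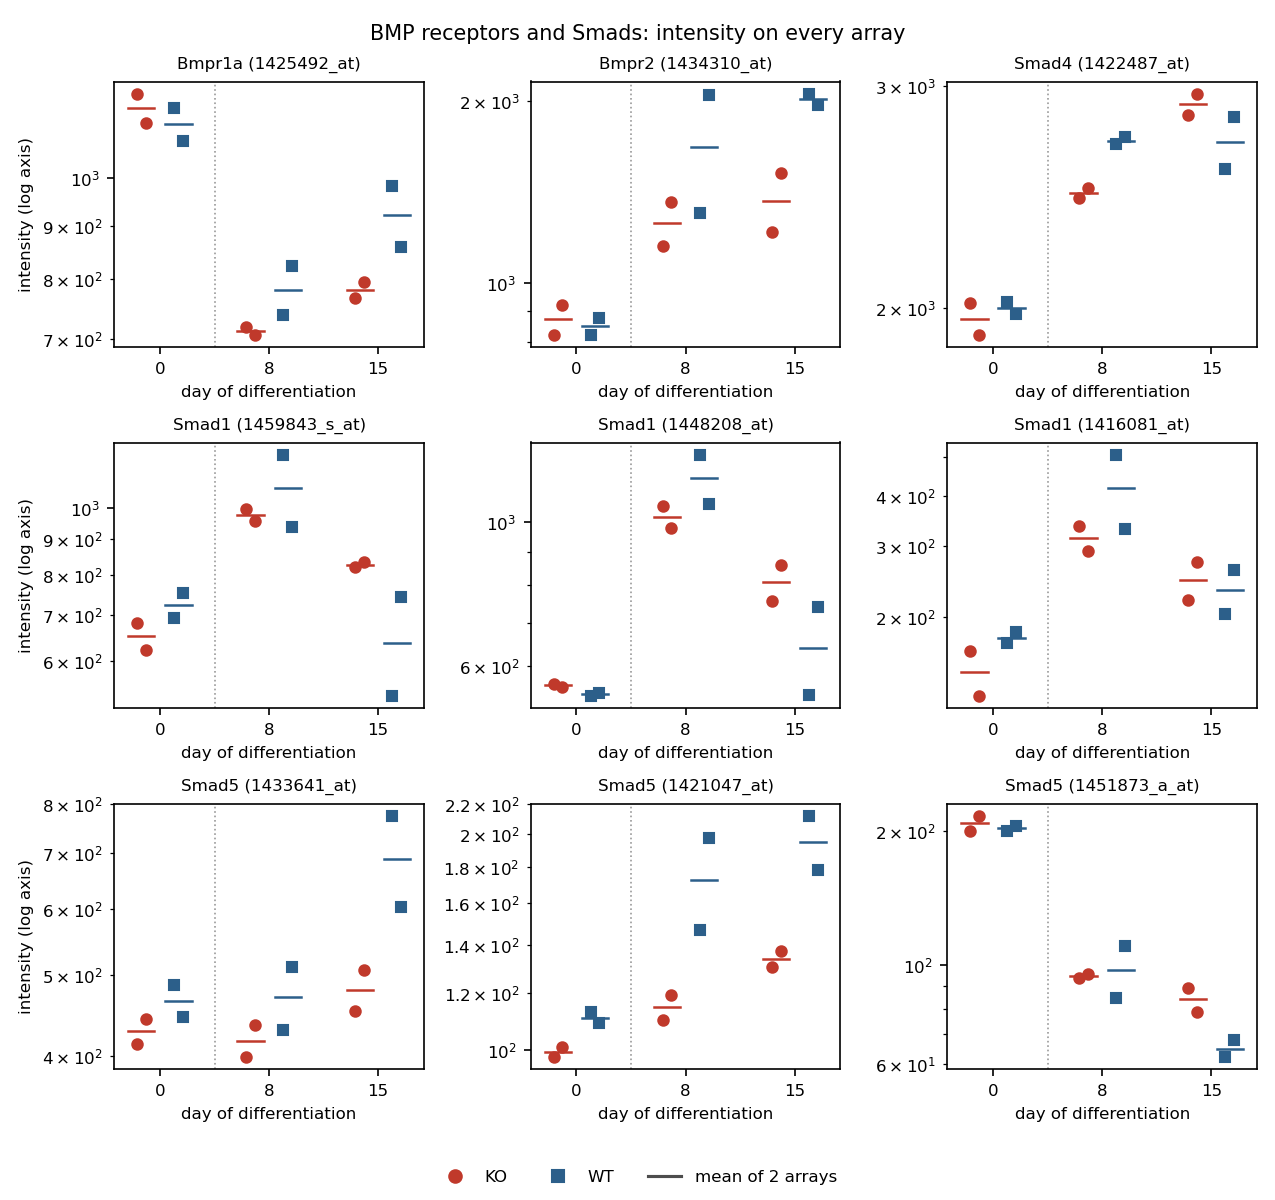
Intensity on a log axis against day for the brightest probe sets of Bmpr1a, Bmpr2 and Smad4 and all 3 probe sets each of Smad1 and Smad5, with KO cells left of WT cells, 1 point per array and a line at the mean of 2 arrays. At day 15 KO arrays lie under WT arrays on 1433641_at and 1421047_at of Smad5 and above them on 1451873_a_at.

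**Figure D4:**
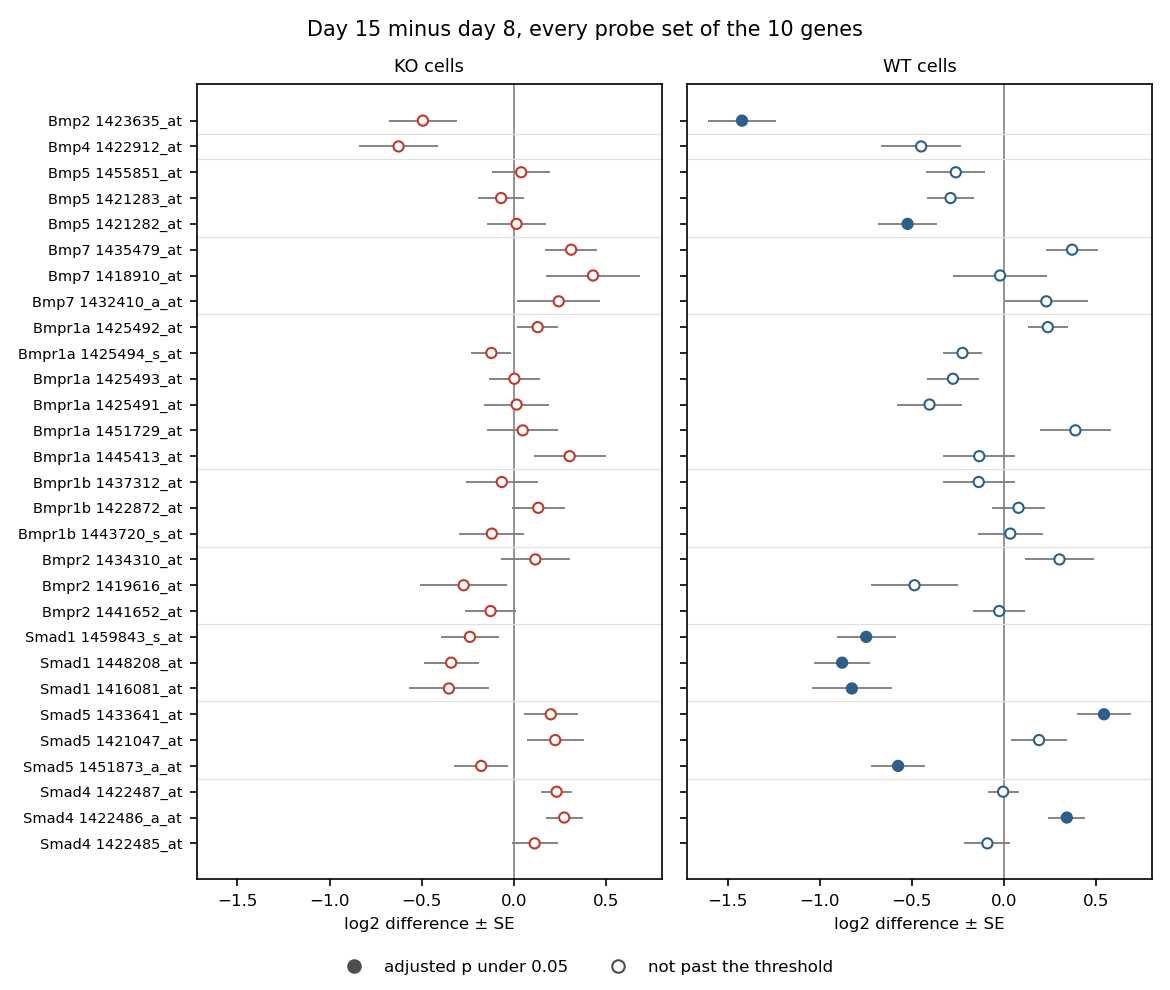
Log2 change from day 8 to day 15 ± SE (horizontal axis) for each of the 29 probe sets (rows), in KO cells (left panel) and WT cells (right panel), 2 arrays a group. Filled points passed an adjusted p of 0.05: none in KO cells and 8 in WT cells, Bmp2 at -1.42 being the largest and 1421282_at of Bmp5 being under the array median throughout.

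Around these 10 genes, other parts of the pathway were read from their brightest probe sets. Of 9 other BMP and GDF ligands measured, 2 were higher in KO cells at day 8, and 1 was higher and 1 lower at day 15. Gdf3, a ligand of pluripotent cells, read 150.6 and 175.8 in KO cells at day 15, against 47.5 and 58 in WT cells (log2 difference 1.63 ± 0.15, adjusted p = 0.000177). At day 8 Gdf3 differed by 0.96 ± 0.15 (adjusted p = 0.0173) and Bmp8b by 0.60 ± 0.12 (adjusted p = 0.0419). Gdf10 read 58.3 and 81 in KO cells at day 15, against 246.1 and 197.1 in WT cells (log2 difference -1.68 ± 0.18, adjusted p = 0.000346). At day 8 Gdf10 read 52.9 and 42.8 in KO cells, against 39.5 and 33.9 in WT cells, near or under the array medians. Its rise to day 15 in WT cells was 2.59 ± 0.18. That exceeded the change in KO cells by a tested difference (interaction -2.06 ± 0.26, adjusted p = 0.00882). The sizes of both rest on the dim values of day 8 and are not read as folds.

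Of the 4 other receptors that bind BMPs (Acvr1, Acvrl1, Acvr2a and Acvr2b) none passed on any day, with a median log2 difference of -0.31 at day 8 and -0.27 at day 15. Of 6 co-receptors, 1 was higher and 2 lower in KO cells at day 15. Tgfbr3 (betaglycan) read 658.8 and 712.1 in KO cells, against 2411 and 2211 in WT cells (log2 difference -1.75 ± 0.29, adjusted p = 0.00388). Neo1 differed by -1.002 ± 0.19 (adjusted p = 0.00658), and its ligand Rgma was higher by 0.61 ± 0.16 (adjusted p = 0.0313).

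Of 5 other Smads, Smad6, an inhibitor of BMP receptor signaling that BMPs induce, was the only one past the threshold between KO and WT cells. It read 234.3 and 197.1 in KO cells at day 8, against 630.2 and 476.7 in WT cells (log2 difference -1.35 ± 0.19, adjusted p = 0.0109). At day 15 it read 193.4 and 276.3 in KO cells, against 538.9 and 516.2 in WT cells (-1.19 ± 0.19, adjusted p = 0.00269). At day 0 it did not stand apart, at 122.4 and 148.3 in KO cells and 148.8 and 136 in WT cells. Of 12 BMP target genes, 1 was lower in KO cells at day 8, and 1 was higher and 3 lower at day 15, with medians of -0.46 and -0.37. Tbx2, a repressor of the T-box family, differed by -1.28 ± 0.19 at day 8 (adjusted p = 0.0138) and -1.49 ± 0.19 at day 15 (adjusted p = 0.000881). Bambi, a decoy receptor, read 321.3 and 439 in KO cells at day 15, against 1293 and 853.6 in WT cells (-1.48 ± 0.19, adjusted p = 0.000789). Atoh8 differed by -0.65 ± 0.12 and Id4 was higher by 0.64 ± 0.14 at day 15. Id1, the usual readout of BMP signaling, was named after its values were seen. At day 8 it read 761.2 and 796.3 in KO cells, against 1089 and 1259 in WT cells, KO arrays lying under WT arrays (log2 difference -0.59, adjusted p = 0.24). It read 749.4 and 914.5 in KO cells at day 15, against 619.3 and 905 in WT cells, with overlapping arrays (log2 difference 0.15, adjusted p = 0.737).

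Of 16 secreted antagonists and modulators, Cer1, an inhibitor of Nodal, BMP and Wnt ligands, was higher in KO cells at day 8 (1.61 ± 0.21, adjusted p = 0.00908). At day 15 Cer1 read 272.4 and 176.2 in KO cells, against 30.6 and 31.5 in WT cells (2.82 ± 0.21, adjusted p = 6.24e-05). Its WT values there lay under the array medians. Sostdc1 passed as lower in KO cells at day 15 (adjusted p = 0.00232), at 21.4 and 23.4, against 48.4 and 41.3 in WT cells. It lay under the median of every array, so no size of difference is given. Of 12 Smad cofactors and regulators, Zeb2 was lower at day 8 (-1.19 ± 0.22, adjusted p = 0.0275) and at day 15 (-1.15 ± 0.22, adjusted p = 0.00574), where Ski was also lower (-0.62 ± 0.15, adjusted p = 0.0225).

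**Figure D5:**
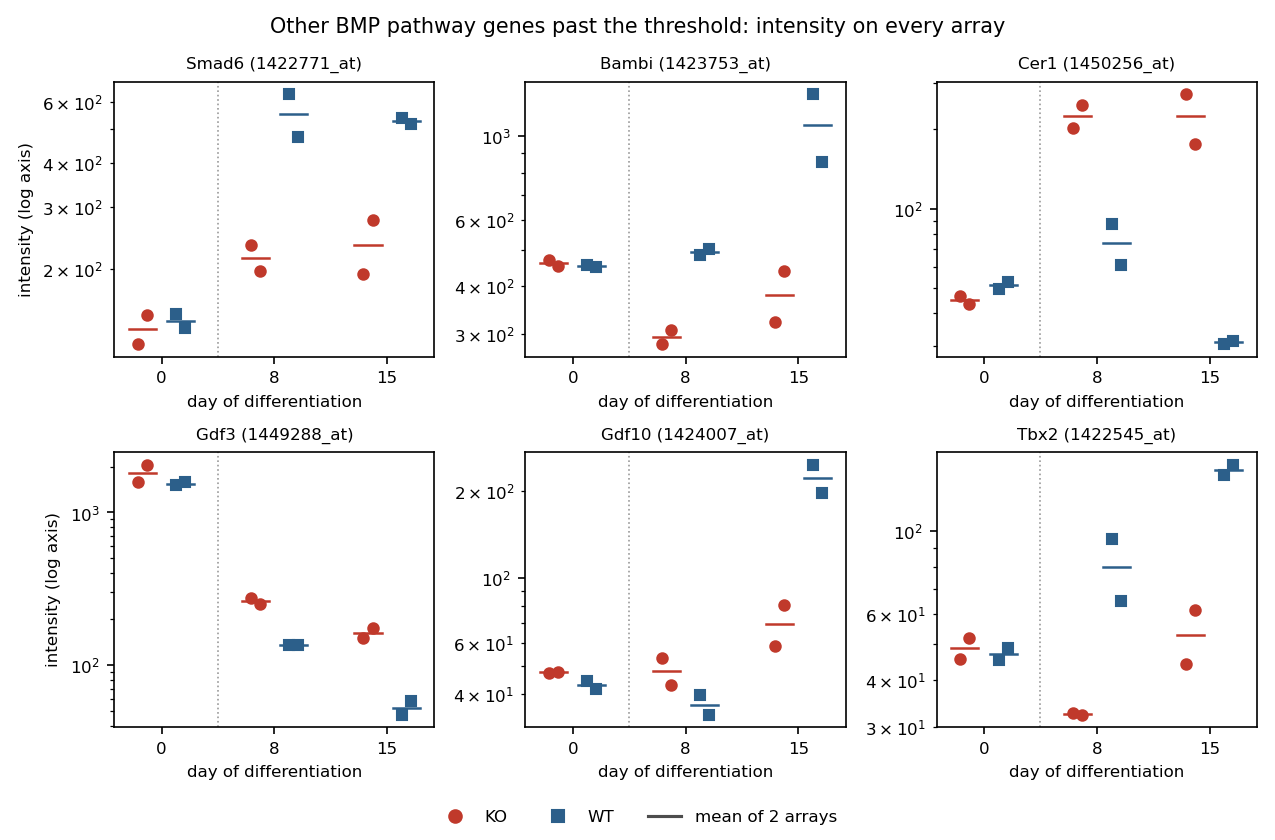
Intensity on a log axis against day for 6 other genes of the pathway on their brightest probe sets, with KO cells left of WT cells, 1 point per array and a line at the mean of 2 arrays. At day 15 KO arrays lie under WT arrays for Smad6, Bambi, Gdf10 and Tbx2 and above them for Cer1 and Gdf3.

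Markers of cell types moved with the comparisons at days 8 and 15. At day 15, of 10 pluripotency markers, 9 were higher in KO cells, with a summed intensity of 9131 to 10620, against 1106 to 2484 in WT cells. Of 11 fibroblast and mesenchyme markers, 7 were lower, with a sum of 19690 to 26020 in KO cells, against 70820 to 92750 in WT cells. Of 8 endoderm markers 6 were lower (5608 to 6736 in KO cells, against 13570 to 26640 in WT cells), and of 6 blood and vessel markers 5 were lower (323.9 to 354.3 in KO cells, against 2228 to 3233 in WT cells). Of 6 epidermal markers 3 were lower, at 311.2 to 391.9 in KO cells, against 649.3 to 778.8 in WT cells. None of 8 cardiac and smooth muscle markers passed, and of 7 neural markers 2 were higher and 1 lower. At day 8 the fibroblast sum was 13050 to 13480 in KO cells, against 16370 to 42700 in WT cells and 1 of 11 was lower. The pluripotency sum was 11740 to 12900 in KO cells at day 8, against 6430 to 9176 in WT cells, and 1 of 10 was higher. No endoderm or blood and vessel marker passed at day 8 in limma, but their sums were 3099 to 3407 and 391.2 to 392.7 in KO cells, against 3805 to 7320 and 877.6 to 1519 in WT cells. The part of these markers in the differences at either day, those of Bmp2, Bmp4, Bmp5, Smad5 and the other pathway genes, was not tested. At day 0, where feeder cells could be present, the fibroblast sum was 12740 to 18220 in KO cells, against 8149 to 11410 in WT cells, with none of 11 past the threshold.

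The genes whose profile over the 8 arrays of days 8 and 15 lay nearest to a ligand were sought among 11671 genes with a mean intensity above the median. The measure was the root mean square difference of log2 intensity after each profile was centred on its own mean. Nearest to Bmp2, whose own spread around its mean was 0.556, were Ftsj3 (0.059), Dut (0.068), Yars2 (0.087), Pno1 (0.102) and Rpf2 (0.106). Ftsj3, Pno1 and Rpf2 are known for ribosome biogenesis. Nearest to Bmp4 (own spread 0.545) were Smarcad1 (0.167), Lypd6 (0.171), Vps50 (0.188), Ptcd3 (0.209) and Stard8 (0.210). Nearest to Bmp5 (own spread 0.398) were Tmem209 (0.099), Echdc1 (0.115), Fndc3c1 (0.118), Ubn2 (0.118) and Phf14 (0.121). Bmp2 thus had closer neighbours than Bmp4 by this measure, which rests on 8 arrays and carries no test.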

How the data were processed

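The authors deposited linear intensities, 1 value per probe set and array, already scaled. MAS5 is named in the submitters' processing notes, its version and settings not being stated there. The 64 control probe sets were left out, so 45037 were tested, of which 34945 carried 1 gene symbol in the platform annotation, which can be old. Precision is limited by the number of arrays, 2 a group, since arrays have no read depth. Values were taken to log2, with intensities under 1 set to 1 (none was lower), and fitted in R 4.3.3 by limma 3.58.1 and statmod 1.5.0, giving each of 6 groups a mean, with an intensity trend, robust moderation and no replicate block, since the study's text names a 1.8-fold rule and no test for its arrays. P-values are two-sided. Simulated data with known changes were used to test the fit. Every member was named on every probe set, a gene being read from its brightest one, and of the other lists up to 4 genes per comparison, smallest p first. The 10 genes and the lists were chosen with earlier results of these data known. Alternatives were an offset of 32, quantile normalization, median centring, the brighter probe sets alone, plain moderation, only the arrays compared and a replicate block. Others were an unpaired t-test of the 2 groups alone, the 1.8-fold rule and leaving out each array in turn. The study's general statistics name a t-test, though not for its arrays. A fit of the 8 later arrays alone was added after the data were seen. Promoter windows and figures were made with Python 3.11.15 and matplotlib 3.10.9.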

Additional observations from a re-analysis of the deposited data

Results flagged for a closer look

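On 11 occasions both KO arrays lay on one side of both WT arrays on 1 day and on the other side on another day. These fell on 8 of the 29 probe sets (27.6%), where 19% of all 45037 probe sets had at least 1 such pair of days. By pair, it held for 5 of 29 members between days 0 and 8 (6.93% of all probe sets), 3 between days 0 and 15 (12.8%) and 3 between days 8 and 15 (5.11%). The members' counts are small, come in part from probe sets of the same gene and carry no test, so nothing particular to the members is read from them. Between days 8 and 15 this held for Bmp2 (log2 difference 0.73 at day 15), for Smad1 on 1448208_at (0.35) and for Smad4 on 1422487_at (0.10). The difference between these days was tested as an interaction and did not pass for any of the 3 (adjusted p of 0.18, 0.332 and 0.463). Between day 0 and a later day it held for Bmp5 on 1421283_at (-0.43 at day 8 and -0.21 at day 15, at intensities under the array median), Bmpr1a on 1425494_s_at (-0.12 at day 8) and 1425493_at (-0.26 at day 8), Smad1 on 1459843_s_at (0.39 at day 15) and 1448208_at (-0.19 at day 8), and Smad4 on 1422486_a_at (-0.14 at day 8 and -0.21 at day 15). Differences between day 0 and later days were not tested, the day 0 arrays having another distribution of intensities.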

How the results depend on the processing

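All 14 values of single probe sets past the threshold kept their direction under every alternative run. An unpaired t-test of the 2 groups alone passed none of them. With 2 arrays a group and adjustment over all probe sets it had little power, so its counts say little about the calls. The calls at days 0, 8 and 15 and in KO and WT cells over time were 0, 1, 5, 0 and 8. That t-test gave 0, 0, 0, 0 and 0. Only the arrays compared gave 0, 0, 3, 2 and 1, and the 1.8-fold rule gave 0, 1, 1, 0 and 2. The fit of the 8 later arrays, chosen after seeing the data, gave 1, 2, 0 and 4 from day 8 on. Quantile normalization gave 3 at day 15. Leaving out single arrays, where the lone array of a group is assumed to vary like the others, gave 0 to 1, 0 to 4, 0 to 7, 0 to 0 and 3 to 7. With a replicate block the counts were 0, 1, 4, 0 and 6. Counts over all probe sets under these alternatives are not given here, so shifts are not read as particular to the members. The differences between replicates 1 and 2 over all probe sets correlated between groups at -0.061 to 0.053, within a day and between days 8 and 15. With 2 arrays a group this cannot exclude that the numbers pair samples, and the labels do not say. Smad4 (1422487_at) in WT cells over time turned to 0.048 under quantile normalization. Some values that had not passed changed sign when 1 array was left out. At day 8 these were Bmp7 (-0.006 to 0.350) and Smad1 (-0.289 to 0.056). Over time they were Bmpr2 (-0.024 to 0.625) and Smad4 (-0.074 to 0.063) in WT cells and Bmp5 in KO cells (-0.136 to 0.216). Bmp4 did so in the difference between these changes (-0.357 to 0.007). The WT arrays of day 8 read 1308 and 2050 for Bmpr2. The cause was not tested. Depth sets no limit here, but Bmpr1b and the probe sets 1421283_at and 1421282_at of Bmp5, 1445413_at of Bmpr1a and 1432410_a_at of Bmp7 lie under the array median on days 8 and 15, and with the brighter probe sets alone 7 were called in WT cells over time.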
